A study of Mus musculus with 15 samples.

Results

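The hepatocyte identity transcription factors are a set of 9 genes: Hnf4a, Foxa1, Foxa2, Foxa3, Cebpa, Cebpb, Onecut1, Nr5a2 and Prox1. They were chosen by name, as the probe sets whose only gene symbol was one of these 9, and they made up 9 of the 19938 genes tested. Every factor had 1 probe set, and all of them were measured. Their levels were followed with Affymetrix whole-transcript arrays in the livers of 15 mice. Each of 5 groups held 3 mice, and each mouse had its own array. All animals were 8 weeks old, of a C57BL/6 background and labelled male. NEMO/Jnk1 DKO mice lacked Jnk1 in every cell and the IkB kinase subunit NEMO in hepatocytes, where the albumin promoter drove Cre on a floxed NEMO gene. NEMO/Jnk2 DKO mice carried the same hepatocyte deletion and lacked Jnk2 in every cell. Jnk1 KO and Jnk2 KO mice carried the constitutive Jnk deletion alone, and WT mice had a floxed, intact NEMO gene without other changes given in the labels. No group among these samples lacked NEMO alone, so the comparison of each double knockout with its own Jnk knockout asked what the loss of NEMO added, and the comparison with WT took both losses together.

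These factors bind DNA in enhancers and promoters of liver genes and keep each other expressed, a circuit that holds a hepatocyte in its differentiated state. HNF4A is a nuclear receptor needed for most hepatocyte functions, and the FOXA proteins are pioneer factors that open chromatin in the developing and adult liver. C/EBP alpha drives metabolic genes and restrains division, while C/EBP beta rises in the acute-phase response and after hepatectomy. ONECUT1 (HNF6) acts in hepatocyte and bile duct differentiation, NR5A2 (LRH-1) controls bile acid synthesis, and PROX1 marks the early hepatoblast and works as a co-repressor. NEMO is the regulatory subunit through which inflammatory signals reach NF-kB, and JNK1 and JNK2 are stress-activated kinases. Mice without NEMO in hepatocytes are known for hepatocyte death, compensatory division and liver tumours.

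The promoters are shown for Foxa1, Foxa3, Cebpa, Cebpb and Onecut1, the 5 factors with a single transcript start in the table used, which carry most of the group differences described here. The sequences are RefSeq's for build GRCm38.p6, each with 250 bases before and 50 bases from the transcript start on, 5′ to 3′ on the gene's own strand. The Foxa1 window lies at chr12:57546062-57546361 on the minus strand and that of Foxa3 at chr7:19023490-19023789 on the minus strand. The Cebpa window lies at chr7:35119043-35119342, that of Cebpb at chr2:167688665-167688964 and that of Onecut1 at chr9:74861671-74861970, all on the plus strand. Capitals mark matches, on either strand, to the FOXA motif TGTTTAC, the HNF4 motif CAAAGTCCA, the ONECUT motif ATTGAT, the C/EBP motif TTGCNNAA, the AP-1 motif TGANTCA, the NF-kB motif or the TATA box TATAAA.
Foxa1: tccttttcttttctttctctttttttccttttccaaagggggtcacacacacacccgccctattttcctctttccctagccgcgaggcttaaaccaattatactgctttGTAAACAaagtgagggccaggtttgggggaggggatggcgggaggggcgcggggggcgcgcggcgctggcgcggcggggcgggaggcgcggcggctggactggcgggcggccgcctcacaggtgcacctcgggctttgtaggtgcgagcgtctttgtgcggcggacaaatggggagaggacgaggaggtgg
Foxa3: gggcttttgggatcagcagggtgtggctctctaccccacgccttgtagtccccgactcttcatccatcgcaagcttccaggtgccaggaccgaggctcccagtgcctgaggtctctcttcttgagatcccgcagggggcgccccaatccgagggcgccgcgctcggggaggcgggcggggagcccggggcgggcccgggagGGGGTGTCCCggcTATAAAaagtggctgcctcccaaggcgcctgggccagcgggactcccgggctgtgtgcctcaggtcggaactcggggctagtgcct
Cebpa: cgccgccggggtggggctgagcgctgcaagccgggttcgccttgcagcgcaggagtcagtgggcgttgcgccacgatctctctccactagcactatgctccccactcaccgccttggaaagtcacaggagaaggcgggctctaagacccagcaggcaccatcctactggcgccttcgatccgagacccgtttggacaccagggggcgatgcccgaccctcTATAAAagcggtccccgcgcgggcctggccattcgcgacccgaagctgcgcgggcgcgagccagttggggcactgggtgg
Cebpb: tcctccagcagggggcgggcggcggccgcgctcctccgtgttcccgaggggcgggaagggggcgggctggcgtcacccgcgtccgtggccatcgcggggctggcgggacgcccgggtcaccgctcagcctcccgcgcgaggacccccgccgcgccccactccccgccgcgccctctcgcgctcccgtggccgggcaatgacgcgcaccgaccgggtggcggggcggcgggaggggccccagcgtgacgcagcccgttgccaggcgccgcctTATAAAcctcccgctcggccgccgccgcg
Onecut1: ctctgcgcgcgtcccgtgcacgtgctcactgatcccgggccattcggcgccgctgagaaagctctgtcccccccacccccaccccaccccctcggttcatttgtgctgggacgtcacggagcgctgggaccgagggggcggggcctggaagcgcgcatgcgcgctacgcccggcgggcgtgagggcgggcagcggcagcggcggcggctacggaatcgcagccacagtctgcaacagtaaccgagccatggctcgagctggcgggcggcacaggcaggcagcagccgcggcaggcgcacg
The Foxa1 window held a FOXA match from -141 to -135, given as the distance in bases from the first transcribed base. Of the 32851 promoter windows in the table, 3.65% held one. The Foxa3 window held an NF-kB match from -49 to -40 beside a TATA box from -36 to -31. An NF-kB match was in 4.51% of all windows and a TATA box in 13.6%. The Cebpa window held a TATA box from -30 to -25. That of Cebpb held the same letters only behind the start, from +21 to +26, in a window of 80.7% GC (all windows, median 52.7%). The Onecut1 window held none of these motifs. Across all 14 windows of the 9 factors, 6 held a TATA box, 2 an ONECUT match (7.54% of all windows) and 1 a C/EBP match (10.8%). None held the HNF4 (0.475%) or AP-1 (7.81%) motif, and 7 held CCAAT (37.4%), which was searched but is not in capitals. A match is a string of letters, not a measured binding site.

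**Figure D1:**
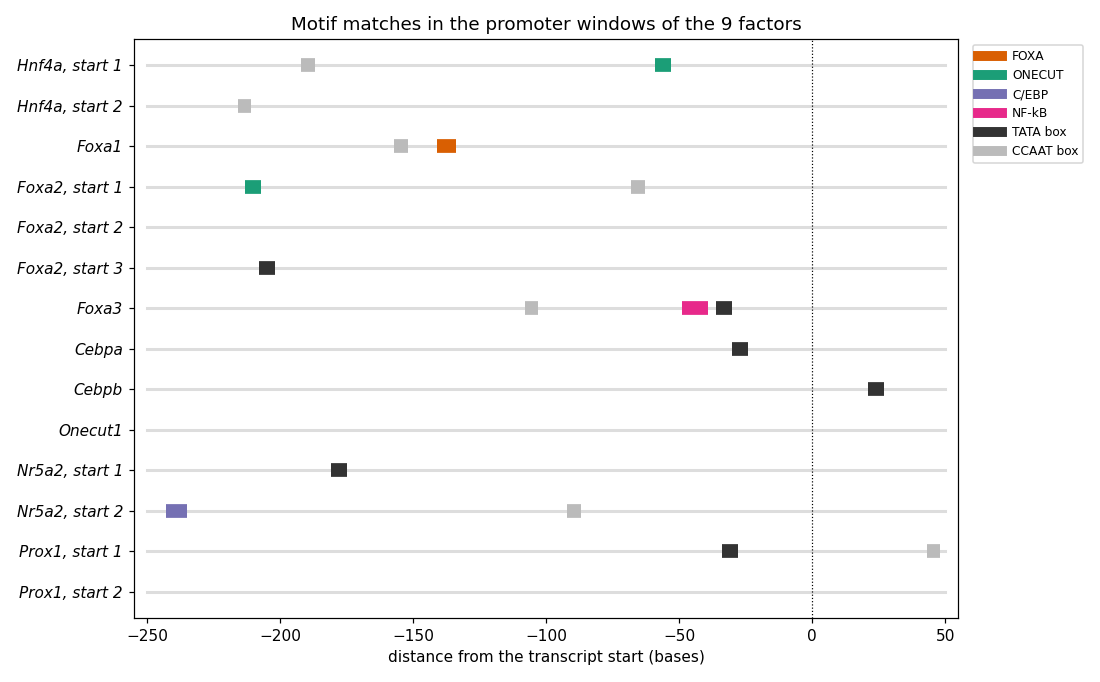
Each grey line is 1 promoter window of a factor, with the distance from the transcript start in bases on the horizontal axis, and coloured bars mark motif matches on either strand. The FOXA match stands in the Foxa1 window, the NF-kB match in the Foxa3 window, and the Onecut1 window is empty.

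The values are log2 expression levels, and the median of an array lay between 4.26 and 4.38. All 9 factors stood above 4.09, the level used as a filter on dim genes, in 15 of 15 arrays. Mapk9, which encodes JNK2, read 2.39 to 3.28 in the 6 Jnk2-null arrays and 7.41 to 7.67 in the others. Mapk8, which encodes JNK1, read 5.87 to 6.53 in the 6 Jnk1-null arrays and 6.58 to 7.03 in the others. Ikbkg, which encodes NEMO, read 6.18 to 6.85 in the double knockouts and 7.03 to 7.41 in 7 of the 9 arrays labelled NEMO-intact. The other 2 arrays, labelled Jnk1 KO replicate 1 and Jnk2 KO replicate 3, read 6.75 and 6.24, and had Ly6d at 10.1 and 9.70 (double knockouts 7.88 to 10.5, the other 7 arrays 4.67 to 5.35). They go against their NEMO label and are called the doubted arrays here, and each factor's difference in a group that holds one is given with and without it, as are the counts of factors. Xist, expressed in females, read 8.68 to 9.17 in 3 arrays labelled male, NEMO/Jnk1 DKO replicates 1 and 2 and Jnk1 KO replicate 1. The remaining 12 arrays had it at 2.40 to 2.82, and the 3 are said below to have the female pattern. Of 8 hepatocyte markers measured, such as albumin and transthyretin genes, 0 passed the limma test against WT in either double knockout, with or without the doubted arrays. At an unadjusted p under 0.05, 1 marker did in NEMO/Jnk2 DKO (as labelled, 3766 of the 19938 genes) and 0 in the other double knockout (3256 genes). The mean level of the 8 markers lay between 12.57 and 12.74 over all arrays.

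**Figure D2:**
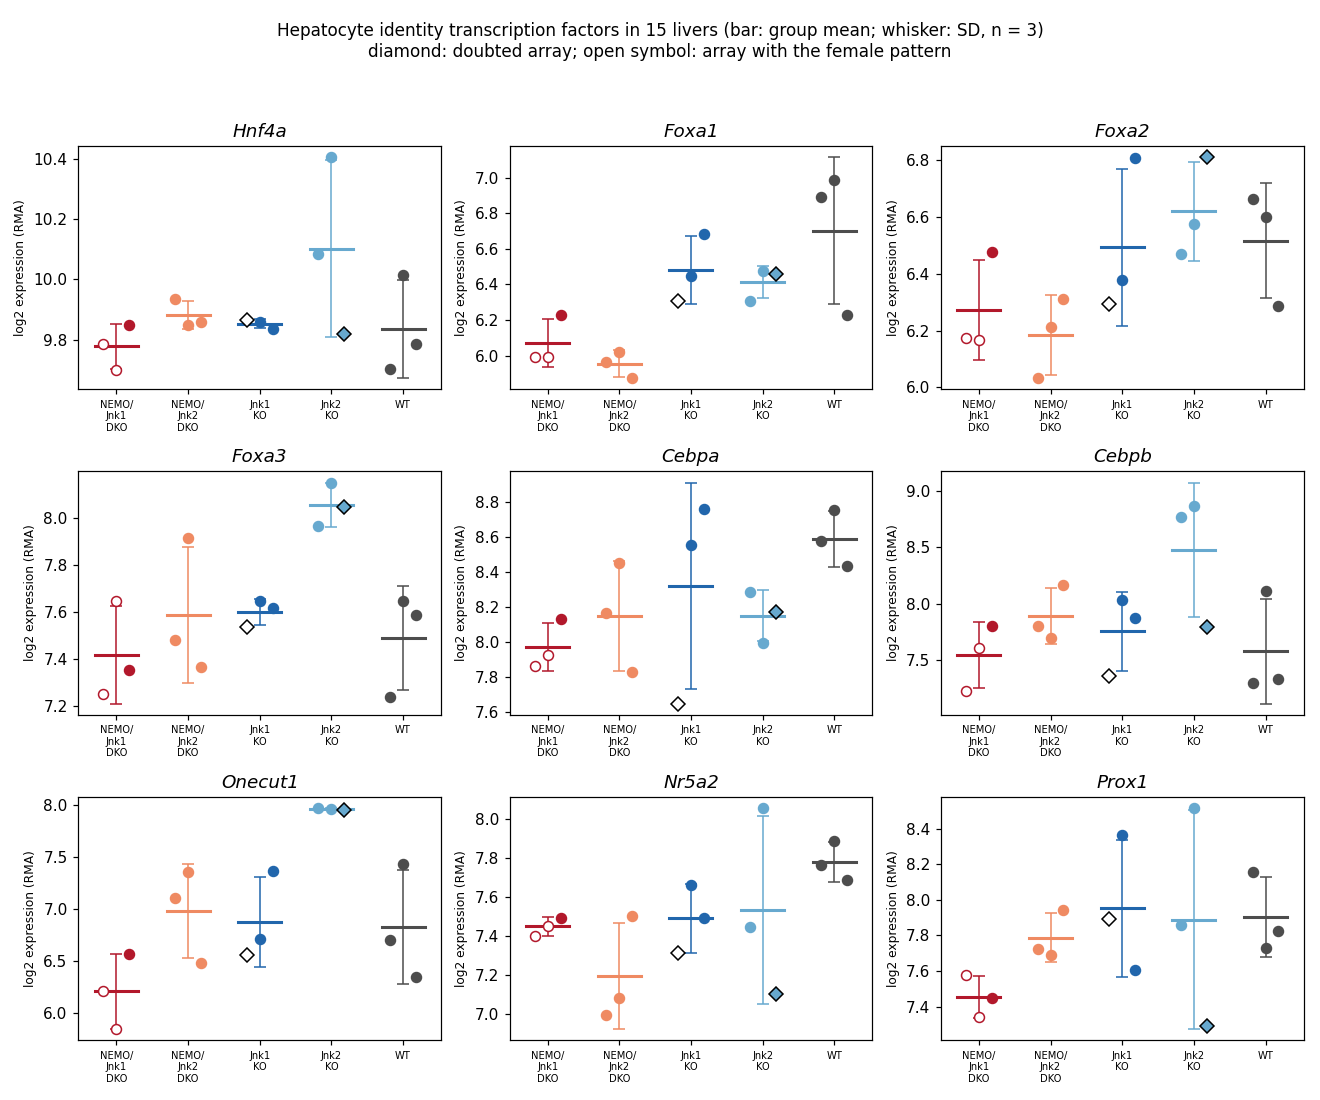
Log2 expression of each factor by group, 1 point per mouse, with the group mean as a bar and the SD as a whisker (n = 3). Diamonds are the 2 doubted arrays and open symbols the 3 arrays with the female pattern. Foxa1 sits lowest in both double knockouts, and Foxa3 and Onecut1 sit highest in Jnk2 KO.

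Among the 9 factors, Foxa1 alone passed the test as the arrays are labelled, and only in NEMO/Jnk2 DKO against WT, where it fell. That is 1 of 9 factors, in a comparison where 2.63% of all genes passed and 1.76% passed as lower (limma, Benjamini-Hochberg adjusted p under 0.05). Under the labels 0 of 9 passed in the other comparisons, and the shares of all genes that passed there were also small. They were 0.0652% in NEMO/Jnk1 DKO against WT, 0% in NEMO/Jnk1 DKO against Jnk1 KO and 0.00502% in NEMO/Jnk2 DKO against Jnk2 KO. For the Jnk deletions with NEMO intact they were 0.01% in Jnk1 KO and 0.411% in Jnk2 KO, each against WT. The 2 double knockouts differed in 0.105% of genes, the 2 single knockouts in 0.13%, and the difference of the NEMO effects between the Jnk backgrounds passed in 0%. At an unadjusted p under 0.05, 2 factors would have passed in NEMO/Jnk1 DKO against WT (with 3256 of the 19938 genes) and 2 against Jnk1 KO (908 genes). There were 4 in NEMO/Jnk2 DKO against Jnk2 KO (1578 genes), 3 in Jnk2 KO against WT (2416) and 0 in Jnk1 KO against WT (1113). The count was 1 between the double knockouts (1085 genes), 3 between the single knockouts (1395) and 0 for the difference of the NEMO effects (548). In whole liver, fewer hepatocytes and less RNA of a factor per hepatocyte cannot be told apart.

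Without the doubted arrays, Foxa1 and Cebpa passed as lower in NEMO/Jnk1 DKO against WT. That is 2 of 9, where 7.91% of all genes passed and 2.99% as lower. Foxa1 and Nr5a2 passed as lower in NEMO/Jnk2 DKO against WT (2 of 9, where 10.6% passed and 4.86% as lower). These groups hold no doubted array, so their differences were the same as labelled and only the estimate of the spread changed. Cebpa fell in NEMO/Jnk1 DKO against Jnk1 KO (1 of 9, where 5.18% passed and 1.13% as lower). Cebpb was the factor that passed in both remaining comparisons with a call. It fell in NEMO/Jnk2 DKO against Jnk2 KO (1 of 9, where 5.85% passed and 1.98% as lower) and rose in Jnk2 KO against WT (1 of 9, where 1.24% passed and 0.682% as higher). Again 0 of 9 passed in Jnk1 KO against WT, where 0.015% of all genes did, between the double knockouts (0.321%), between the single knockouts (0.597%) and for the difference of the NEMO effects (0.01%). Unadjusted, limma gave 0, 1, 5 and 1 factors under 0.05 in these comparisons, and 1011, 1496, 2152 and 1313 of the 19938 genes. Each of these counts is of 1 or 2 genes, and nothing is read from it about the 9 factors as a list.

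**Figure D3:**
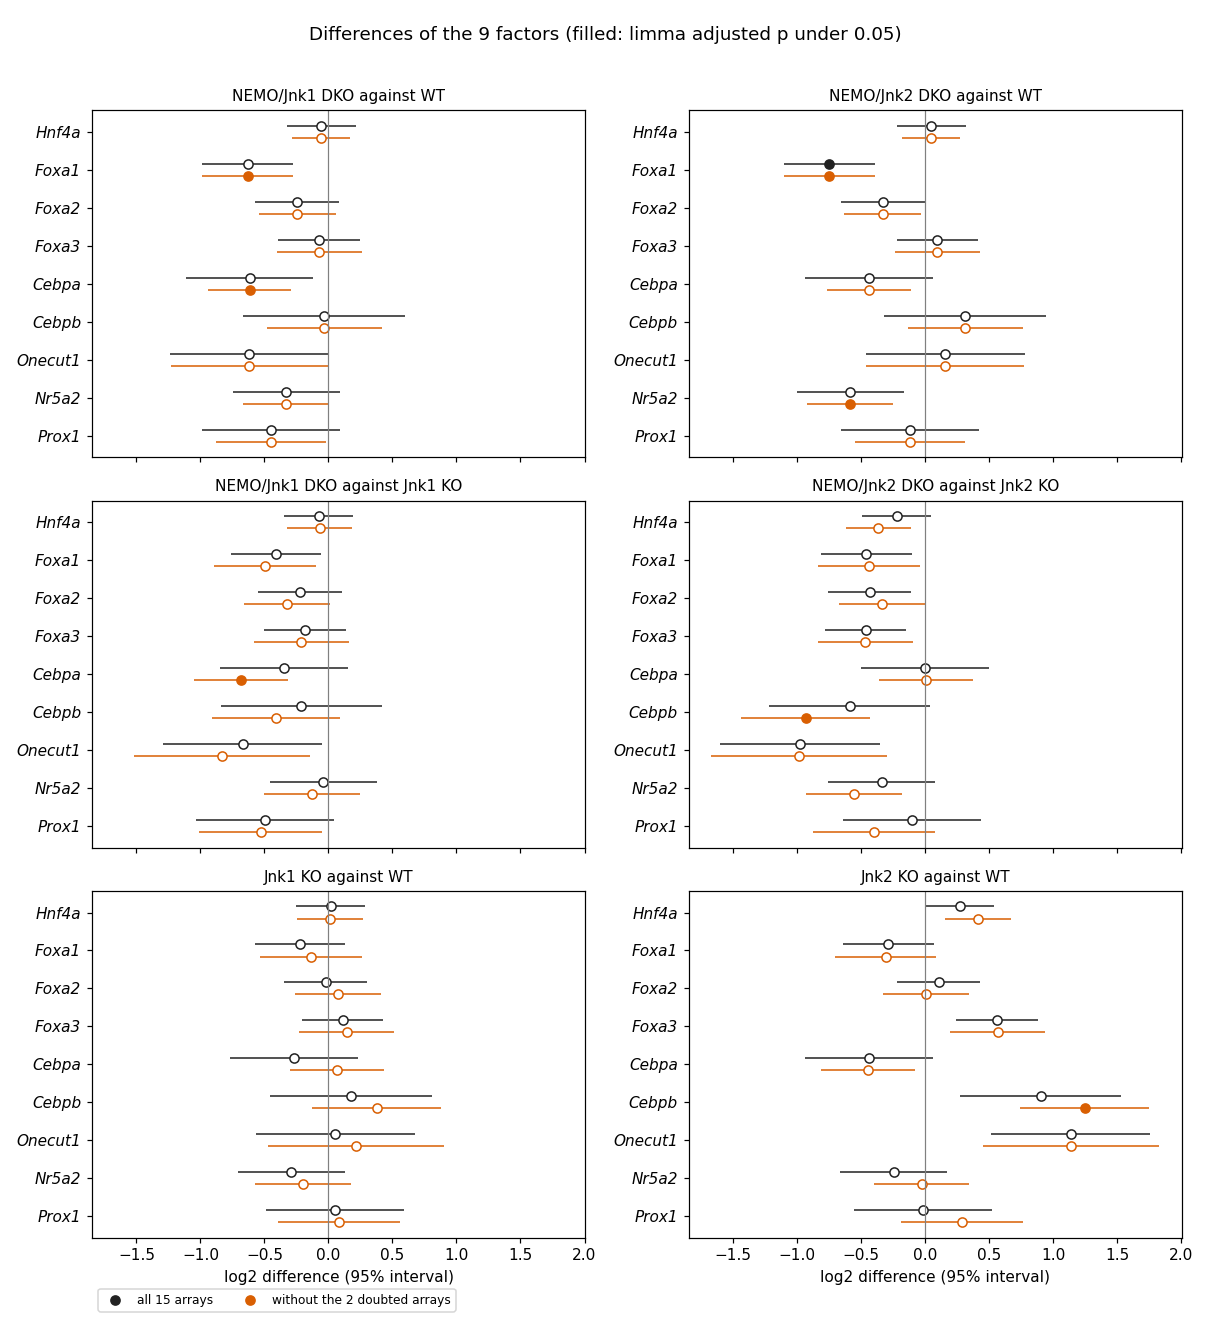
Log2 difference of each factor with its 95% interval in 6 comparisons, for all 15 arrays (black) and without the 2 doubted arrays (orange); filled points passed the limma test. Hnf4a lies near 0 in both double knockouts against WT, while the interval of Foxa1 lies below 0 in both.

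Hnf4a, the nuclear receptor at the head of the circuit, showed no change past the test in any comparison. It read 9.79, 9.70 and 9.85 in NEMO/Jnk1 DKO (replicates 1 to 3, the order used throughout) and 9.93, 9.85 and 9.86 in NEMO/Jnk2 DKO. It read 9.86, 9.86 and 9.84 in Jnk1 KO, 10.08, 10.41 and 9.82 in Jnk2 KO, and 9.70, 10.02 and 9.79 in WT. The WT range spans nearly all double knockout arrays, and the highest 2 readings belong to Jnk2 KO. The difference was -0.06 in NEMO/Jnk1 DKO against WT (95% interval -0.33 to 0.21) and 0.05 in NEMO/Jnk2 DKO against WT (-0.22 to 0.32). In Jnk2 KO against WT it was 0.27 (SE 0.13, limma adjusted p = 0.413) and, without the doubted array, 0.41 (adjusted p = 0.119). All neighbours in the order of the group means overlapped.

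Foxa1, a pioneer factor, had its lowest means in the double knockouts. It read 5.99, 5.99 and 6.23 in NEMO/Jnk1 DKO and 5.97, 6.02 and 5.87 in NEMO/Jnk2 DKO. It read 6.31, 6.45 and 6.68 in Jnk1 KO, 6.31, 6.48 and 6.46 in Jnk2 KO, and 6.89, 6.99 and 6.23 in WT. The 6 double knockout arrays lie at 5.87 to 6.23 and the 9 others at 6.23 to 6.99, and the only contact between them is NEMO/Jnk1 DKO replicate 3 with WT replicate 3, which differ beyond the second decimal. The doubted arrays, Jnk1 KO replicate 1 and Jnk2 KO replicate 3, read 6.31 and 6.46 and lie with the 9. In NEMO/Jnk2 DKO against WT it fell by 0.75 on the log2 scale, to 0.595 of the WT level (SE 0.16, limma adjusted p = 0.0338, lower in 3 of 3 arrays). This call was lost when any of the 3 NEMO/Jnk2 DKO arrays or WT replicate 1 or 2 was left out (adjusted p from 0.0752 to 0.139), with the difference between -0.99 and -0.61 over all arrays left out in turn. In NEMO/Jnk1 DKO against WT the difference was -0.63 (SE 0.16, adjusted p = 0.123), and without the doubted arrays it passed (adjusted p = 0.0321). A term for the sex pattern, with all arrays kept, left -0.47 (adjusted p = 0.822), and with the doubted arrays also left out -0.47 (adjusted p = 0.447), a value that rests on NEMO/Jnk1 DKO replicate 3. Against its own Jnk knockout Foxa1 was at -0.41 in NEMO/Jnk1 DKO (adjusted p = 0.962) and -0.46 in NEMO/Jnk2 DKO (adjusted p = 0.563), and neither pair of groups overlapped. The fit that leaves out the doubted arrays gave -0.50 (adjusted p = 0.166) and -0.44 (adjusted p = 0.222).

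Foxa2, the related factor active in bile acid and glucose handling, was also lowest in the double knockouts, with smaller gaps and no call. It read 6.17, 6.17 and 6.48 in NEMO/Jnk1 DKO and 6.03, 6.21 and 6.31 in NEMO/Jnk2 DKO. It read 6.29, 6.38 and 6.81 in Jnk1 KO, 6.47, 6.58 and 6.81 in Jnk2 KO, and 6.66, 6.60 and 6.29 in WT. All 3 NEMO/Jnk2 DKO arrays lie below the Jnk2 KO arrays, while both double knockouts overlap WT through WT replicate 3. The difference was -0.43 in NEMO/Jnk2 DKO against Jnk2 KO (SE 0.15, limma adjusted p = 0.563; -0.34 and 0.272 without the doubted arrays) and -0.33 against WT (adjusted p = 0.260). In NEMO/Jnk1 DKO against WT it was -0.24 (adjusted p = 0.454).

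Foxa3, the remaining family member, which takes part in glucose homeostasis, stood out in another group. It read 7.25, 7.65 and 7.35 in NEMO/Jnk1 DKO and 7.48, 7.91 and 7.37 in NEMO/Jnk2 DKO. It read 7.54, 7.65 and 7.62 in Jnk1 KO, 7.96, 8.15 and 8.04 in Jnk2 KO, and 7.24, 7.65 and 7.59 in WT. The 3 Jnk2 KO arrays, the doubted one included, lie above all 12 others, whose highest reading is 7.91. The difference in Jnk2 KO against WT was 0.56 (SE 0.15, 1.48-fold), which missed the threshold (limma adjusted p = 0.126). In NEMO/Jnk2 DKO against Jnk2 KO it was -0.47 (adjusted p = 0.553). These were 0.57 (adjusted p = 0.147) and -0.47 (adjusted p = 0.149) when the doubted arrays were left out. The other 4 groups overlapped each other in the order of their means.

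Cebpa, the gene of the factor that drives metabolic genes, had its highest mean in WT as labelled. It read 7.86, 7.92 and 8.13 in NEMO/Jnk1 DKO and 8.16, 8.45 and 7.83 in NEMO/Jnk2 DKO. It read 7.65, 8.55 and 8.76 in Jnk1 KO, 8.28, 7.99 and 8.17 in Jnk2 KO, and 8.57, 8.75 and 8.43 in WT. The lowest of the 15 readings belongs to the doubted Jnk1 KO array, without which the Jnk1 KO mean was 8.66 (n = 2), against 8.59 in WT. The NEMO/Jnk1 DKO arrays lie below all WT arrays, and so do the Jnk2 KO arrays. The means of Jnk2 KO and NEMO/Jnk2 DKO were both 8.15, against 7.97 in NEMO/Jnk1 DKO and 8.59 in WT. Cebpa passed against WT in neither Jnk2-null group. The difference in NEMO/Jnk1 DKO against WT was -0.62, with an SE of 0.23 as labelled (limma adjusted p = 0.212) and of 0.15 without the doubted arrays, when it passed (adjusted p = 0.0244). Against Jnk1 KO it was -0.35 as labelled (adjusted p = 0.962) and -0.68 without the doubted arrays (adjusted p = 0.0332). Leaving out Jnk1 KO replicate 3 alone gave -0.13 (adjusted p = 0.960) and leaving out replicate 2 alone gave -0.23 (adjusted p = 1.00). The 3 arrays with the female pattern read 7.65 to 7.92 and the other 3 Jnk1-null arrays 8.13 to 8.76. The first set is NEMO/Jnk1 DKO replicates 1 and 2 and the doubted Jnk1 KO array. The other set is NEMO/Jnk1 DKO replicate 3 and Jnk1 KO replicates 2 and 3. Sex pattern and loss of NEMO therefore cannot be told apart between these sets. A sex term with all arrays left -0.20 against WT (adjusted p = 0.946) and -0.14 against Jnk1 KO (adjusted p = 1.00), and with the doubted arrays also left out, where NEMO/Jnk1 DKO rests on replicate 3 alone, the values were -0.46 (adjusted p = 0.413) and -0.53 (adjusted p = 0.418). The female-pattern arrays also lay below the other 3 Jnk1-null arrays for Foxa2 (6.17 to 6.29 against 6.38 to 6.81) and Cebpb (7.22 to 7.61 against 7.80 to 8.03). So they did for Onecut1 (5.85 to 6.55 against 6.56 to 7.37) and Nr5a2 (7.31 to 7.45 against 7.49 to 7.66). These sets of arrays overlapped for Hnf4a, Foxa1, Foxa3 and Prox1. The share of all genes that separate these sets was not computed, so nothing is read from this about the factors. For Cebpa, NEMO/Jnk2 DKO and Jnk2 KO differed by -0.00 (95% interval -0.50 to 0.49), and by 0.01 without the doubted arrays (-0.36 to 0.37).

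Cebpb, the gene of the acute-phase C/EBP factor, was highest in 2 of the 3 Jnk2 KO livers. It read 7.22, 7.61 and 7.80 in NEMO/Jnk1 DKO and 7.80, 7.69 and 8.17 in NEMO/Jnk2 DKO. It read 7.36, 8.03 and 7.87 in Jnk1 KO, 8.77, 8.87 and 7.79 in Jnk2 KO, and 7.29, 8.11 and 7.33 in WT. Jnk2 KO replicates 1 and 2 lie above every other array, and the low reading of replicate 3 is the doubted array. As labelled the difference in Jnk2 KO against WT was 0.90 (SE 0.29, limma adjusted p = 0.220). Without the doubted arrays it was 1.25 (SE 0.23, 2.37-fold, adjusted p = 0.0199, higher in 2 of 2 arrays), and in NEMO/Jnk2 DKO against Jnk2 KO -0.93 (SE 0.23, adjusted p = 0.0324, lower in 3 of 3 arrays). As labelled NEMO/Jnk2 DKO against Jnk2 KO gave -0.59 (adjusted p = 0.654), and -0.39 with Jnk2 KO replicate 2 left out. Both calls rest on 2 Jnk2 KO arrays.

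Onecut1, which encodes HNF6, varied over the widest range of the 9 factors, 2.13 between its lowest and highest array. It read 6.22, 5.85 and 6.56 in NEMO/Jnk1 DKO and 7.11, 7.36 and 6.48 in NEMO/Jnk2 DKO. It read 6.55, 6.72 and 7.37 in Jnk1 KO, 7.97, 7.96 and 7.95 in Jnk2 KO, and 6.70, 7.43 and 6.35 in WT. The Jnk2 KO arrays, the doubted one included, agree within an SD of 0.011 and lie above all 12 others, whose highest reading is 7.43. The difference in Jnk2 KO against WT was 1.14 (SE 0.29, 2.20-fold) and missed the threshold (limma adjusted p = 0.116, and 0.111 without the doubted arrays). In NEMO/Jnk2 DKO against Jnk2 KO it was -0.98 (adjusted p = 0.520; 0.0991 without the doubted arrays), in Jnk1 KO against Jnk2 KO -1.08 (adjusted p = 0.268; -0.93 and 0.331 without them) and in NEMO/Jnk1 DKO against NEMO/Jnk2 DKO -0.77 (adjusted p = 0.718). The remaining 4 groups overlapped in the order of their means, with the lowest in NEMO/Jnk1 DKO.

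Nr5a2, which encodes the bile acid regulator LRH-1, was lower in both double knockouts than in any WT array. It read 7.40, 7.45 and 7.49 in NEMO/Jnk1 DKO and 7.0, 7.08 and 7.50 in NEMO/Jnk2 DKO. It read 7.31, 7.66 and 7.49 in Jnk1 KO, 7.44, 8.06 and 7.10 in Jnk2 KO, and 7.76, 7.89 and 7.69 in WT. The Jnk1 KO arrays also lie below WT, and the Jnk2 KO arrays spread on both sides of it. The difference in NEMO/Jnk2 DKO against WT was -0.59, with an SE of 0.19 as labelled (limma adjusted p = 0.119) and of 0.16 without the doubted arrays, when it passed (adjusted p = 0.0285). In NEMO/Jnk1 DKO against WT it was -0.33 (adjusted p = 0.426), and in Jnk1 KO against WT -0.29 (adjusted p = 0.865; -0.20 and 0.983 without the doubted arrays).

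Prox1, the hepatoblast factor, differed past the test in no comparison. It read 7.58, 7.34 and 7.45 in NEMO/Jnk1 DKO and 7.72, 7.69 and 7.94 in NEMO/Jnk2 DKO. It read 7.89, 8.37 and 7.60 in Jnk1 KO, 7.86, 8.52 and 7.29 in Jnk2 KO, and 8.15, 7.73 and 7.83 in WT. The NEMO/Jnk1 DKO arrays lie below all Jnk1 KO, WT and NEMO/Jnk2 DKO arrays, and the lowest reading of all is the doubted Jnk2 KO array. The difference was -0.45 in NEMO/Jnk1 DKO against WT (SE 0.25, limma adjusted p = 0.398) and -0.50 against Jnk1 KO (adjusted p = 0.962). Once the doubted arrays were left out, they were -0.45 (adjusted p = 0.213) and -0.53 (adjusted p = 0.234).

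As a list, the 9 factors were at lower point estimates in NEMO/Jnk1 DKO than in WT in 9 of 9 cases, where 59.1% of all genes were lower. The median difference there was -0.33, against -0.04 over all genes, and with the sex term 8 of 9 were lower, with a median of -0.20. Without the 3 arrays of the female pattern 7 of 9 were lower, as were 55.3% of all genes. The median was -0.26, and NEMO/Jnk1 DKO rests on replicate 3 there. All 9 were also lower in NEMO/Jnk1 DKO than in Jnk1 KO (52.0% of all genes), with a median of -0.22 against -0.01. Without the doubted arrays 9 of 9 were lower there, with a median of -0.41. With the sex term and all arrays it was 8 of 9, with a median of -0.14. In NEMO/Jnk2 DKO all 9 were lower than in Jnk2 KO (49.8% of all genes), with a median of -0.43 against 0.00. Without the doubted arrays it was 8 of 9, with a median of -0.44. In NEMO/Jnk2 DKO against WT the factors were split, 5 lower and 4 higher, with a median of -0.12 against -0.04. NEMO/Jnk1 DKO serves in both of its comparisons, as NEMO/Jnk2 DKO does, so these counts share arrays. As labelled, the arrays did not overlap for 3 factors in NEMO/Jnk1 DKO against WT (25.5% of all genes), 2 in NEMO/Jnk2 DKO against WT (27.8%), 2 in NEMO/Jnk1 DKO against Jnk1 KO (6.69%) and 4 in NEMO/Jnk2 DKO against Jnk2 KO (11.7%). They did not overlap for 3 in Jnk2 KO against WT (17%), 1 in Jnk1 KO against WT (8.66%), 2 between the double knockouts (12.6%) and 2 between the single knockouts (8.01%). The count without the doubted arrays was 5 in NEMO/Jnk1 DKO against Jnk1 KO (30.7% of all genes), 6 in NEMO/Jnk2 DKO against Jnk2 KO (33.2%), 1 in Jnk1 KO against WT (17.4%), 5 in Jnk2 KO against WT (27.5%) and 5 between the single knockouts (35.1%).

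Markers of macrophages and stellate cells and proliferation genes were higher in the double knockouts in the test without the doubted arrays. There 4.92% of all genes rose in NEMO/Jnk1 DKO against WT, as did 5.75% for NEMO/Jnk2 DKO. Of the macrophage markers, 6 of 9 rose in NEMO/Jnk1 DKO against WT and 7 of 9 rose in NEMO/Jnk2 DKO against WT. Of 9 stellate cell markers 6 rose in NEMO/Jnk1 DKO and 5 rose in NEMO/Jnk2 DKO, and of 7 proliferation genes all 7 rose in both. Fewer passed in the other lists. Of 8 endothelial markers 1 rose in NEMO/Jnk1 DKO but 0 rose in NEMO/Jnk2 DKO (2 and 0 at an unadjusted p under 0.05), and of 7 cholangiocyte markers 1 rose in each. Of 7 neutrophil markers 0 and 2 rose in these groups (0 and 4 unadjusted), and of 7 lymphocyte markers 0 and 1 (2 and 3 unadjusted). Unadjusted, 4148 of the 19938 genes passed in NEMO/Jnk1 DKO against WT and 4517 in NEMO/Jnk2 DKO against WT. As labelled, 1 macrophage marker and 1 proliferation gene passed, both in NEMO/Jnk2 DKO. The stellate list averaged 7.96 to 8.15 in NEMO/Jnk1 DKO arrays and 7.77 to 8.04 in NEMO/Jnk2 DKO arrays, against 6.85 to 6.99 in WT, and 8.28 and 8.38 in the doubted arrays. The macrophage list averaged 7.34 to 7.95 in NEMO/Jnk1 DKO arrays and 7.19 to 7.79 in NEMO/Jnk2 DKO arrays, against 6.07 to 6.74 in WT. The proliferation list averaged 5.86 to 6.09 in NEMO/Jnk1 DKO arrays and 5.58 to 6.40 in NEMO/Jnk2 DKO arrays, against 4.35 to 4.58 in WT. The part of these cells in the differences of the factors was not tested.

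A second list held other transcription factors of the liver. Of 29 measured, 1 fell as labelled in NEMO/Jnk2 DKO against WT, Tcf7l2 (-0.53, SE 0.13, limma adjusted p = 0.0472), the Wnt effector TCF4, where 1.76% of all genes fell. As labelled 0 passed in NEMO/Jnk1 DKO against WT (9 at an unadjusted p under 0.05, as did 3256 of the 19938 genes). Without the doubted arrays 4 of 29 fell in NEMO/Jnk1 DKO against WT (2.99% of all genes), led by Klf15 (-0.65), a regulator of amino acid breakdown, and Ppara (-0.46), the fasting-response receptor, with Creb3l3 (-0.41) and Rxra (-0.40). Of the 29, 5 fell in NEMO/Jnk2 DKO against WT (4.86% of all genes), among them Hhex (-1.11), a factor of early liver development, Klf15 (-0.91) and Nr1i3 (-0.74), the xenobiotic receptor CAR. Klf15 also fell against the matching Jnk knockout, by 0.69 (NEMO/Jnk1 DKO) and by 0.93 (NEMO/Jnk2 DKO), without the doubted arrays. Of the 29, 2 and 3 fell in these comparisons, where 1.13% and 1.98% of all genes fell. In Jnk2 KO against WT, Cebpd, another acute-phase C/EBP gene, rose by 1.19 (SE 0.20, adjusted p = 0.0232), and by 1.06 without the doubted arrays (adjusted p = 0.0276). There Nr2f2, which encodes COUP-TFII, fell by 0.72 (SE 0.15, limma adjusted p = 0.0343), so 1 of 29 rose and 1 fell without the doubted arrays, where 1.24% of all genes passed.

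Genes known as targets of the factors were followed in 4 further lists, which share some genes. As labelled, 4 of 23 HNF4A targets fell in NEMO/Jnk2 DKO against WT, where 1.76% of all genes fell and 0.873% rose. Hnf4a itself did not pass. They were Cyp8b1, the sterol 12-alpha-hydroxylase of bile acid synthesis (-1.65, SE 0.37, limma adjusted p = 0.0345), the coagulation factor gene F7 (-0.75), the transporter gene Abcc6 (-0.65) and Cyp2d22 (-0.52). Of 10 NR5A2 targets 2 fell there, Cyp8b1 again and Abcb11 (-0.68), the bile salt export pump. Of 13 FOXA targets 0 passed there as labelled, with G6pc and Tat nearest (limma adjusted p = 0.0614 and 0.108). At an unadjusted p under 0.05, 2 of the 13 did, and 3766 of the 19938 genes. Of 21 C/EBP targets 5 rose, led by the acute-phase genes Lcn2 (4.08), Saa2 (3.26), Orm2 (3.05) and Saa1 (2.70). In NEMO/Jnk1 DKO against WT 0 of the 51 genes in these 4 lists passed as labelled (17 unadjusted, where 3256 of the 19938 genes did). In Jnk2 KO against WT 2 of the 21 C/EBP targets rose, Saa2 (3.10) and the fibrinogen gene Fga (1.06). Of all genes, 0.411% passed there in either direction.

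Without the doubted arrays more targets passed, and so did more of all genes, of which 2.99% fell in NEMO/Jnk1 DKO against WT and 4.86% fell in NEMO/Jnk2 DKO against WT. In NEMO/Jnk1 DKO against WT 6 of 23 HNF4A targets fell, among them Cyp8b1 (-1.24), F7 (-0.63), Pck1 (-0.53), the gluconeogenic enzyme, and Slc10a1 (-0.51), the bile acid uptake carrier. Of the 23, 11 fell in NEMO/Jnk2 DKO against WT, among them Cyp8b1 (-1.65) and G6pc (-0.90), the last enzyme of glucose release. Of 13 FOXA targets 2 fell in NEMO/Jnk1 DKO, Tdo2 (-0.64) and Pck1, and 3 in NEMO/Jnk2 DKO, G6pc, Tat (-0.58) and Pck1 (-0.53). Of 10 NR5A2 targets 4 fell in NEMO/Jnk1 DKO and 5 fell in NEMO/Jnk2 DKO, where the sterol exporters Abcg8 (-1.44) and Abcg5 (-1.11) were among them. In NEMO/Jnk1 DKO, Cyp7b1 (-2.98) was among the 4, a gene known to be higher in male mouse liver, in a group with the female pattern in 2 of 3 arrays. In Jnk2 KO against WT 0 of the 10 NR5A2 targets passed (5 unadjusted, where 2570 of the 19938 genes did). Their median was -0.44 there, and -0.68 in NEMO/Jnk2 DKO against WT. The NR5A2 list averaged 8.80 and 8.89 in the 2 Jnk2 KO arrays not doubted, 8.33 to 8.74 in NEMO/Jnk2 DKO and 9.23 to 9.46 in WT. The C/EBP targets divided, with 1 higher and 3 lower in NEMO/Jnk1 DKO and 5 higher and 5 lower in NEMO/Jnk2 DKO. In Jnk2 KO against WT 4 of the 21 were higher and 0 lower, where 0.682% of all genes rose. The C/EBP list averaged 10.50 to 11.01 in all Jnk2 KO arrays and 10.48 to 10.97 in NEMO/Jnk2 DKO arrays, against 10.22 to 10.34 in WT. Against the Jnk knockout of the same background, 2 HNF4A targets fell in NEMO/Jnk1 DKO, Cyp8b1 (-1.15) and Slc10a1 (-0.44), where 1.13% of all genes fell. There were 7 in NEMO/Jnk2 DKO against Jnk2 KO (1.98% of all genes), with G6pc (-1.12) and Cyp8b1 (-0.94) the largest. With the sex term and all arrays, 0 targets passed in NEMO/Jnk1 DKO against WT (7 unadjusted, where 1196 of the 19938 genes did). In that fit 8 of 23 HNF4A targets fell in NEMO/Jnk2 DKO against WT, where 5.19% of all genes passed in either direction.

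**Figure D4:**
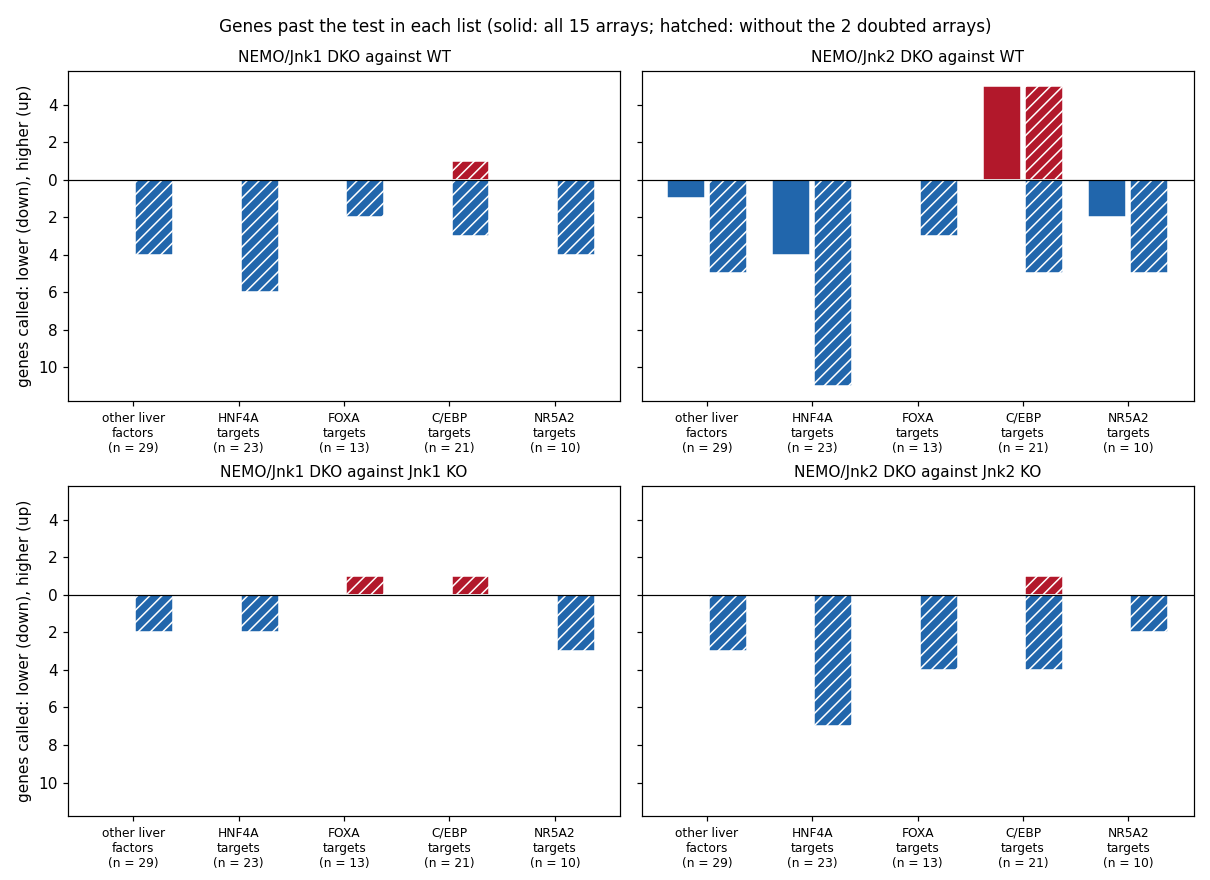
Number of genes past the limma test in 5 lists and 4 comparisons, with higher genes above and lower genes below the zero line, and n the genes measured in each list. Solid bars use all 15 arrays and hatched bars leave out the 2 doubted ones; the HNF4A targets reach 11 lower genes of 23 in NEMO/Jnk2 DKO against WT.

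Correlations within groups were taken over 15 arrays after each group mean was taken off. For Foxa1 and Foxa2 the Pearson correlation was 0.74 (Spearman 0.75), and 0.74 without the doubted arrays. Nr5a2 and Prox1 reached 0.78 (Spearman 0.50) and 0.63 without the doubted arrays, but 0.40 without the 2 arrays farthest from the median. Hnf4a and Cebpb correlated at 0.71 (Spearman 0.51) and at 0.56 without the doubted arrays. Other pairs were as high, with Foxa1 and Onecut1 at 0.77 (0.75 without the doubted arrays), Cebpb and Nr5a2 at 0.77 (0.53), Hnf4a and Nr5a2 at 0.72 (0.54, and 0.12 without the 2 farthest) and Cebpa and Onecut1 at 0.71 (0.83). Foxa3 and Onecut1 shared the high Jnk2 KO group, with 0.76 over all arrays, but only 0.27 within groups. These values describe arrays that share a normalization and, within a group, a genotype.

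**Figure D5:**
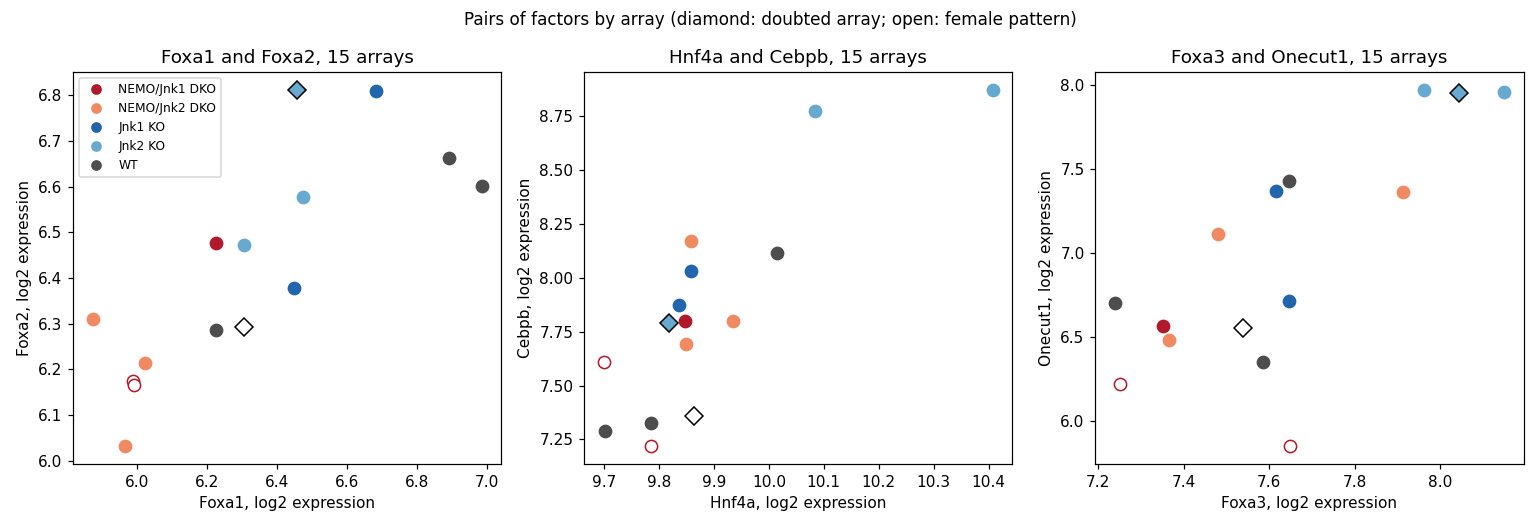
Log2 expression of 3 pairs of factors, 1 point per array, coloured by group, with diamonds for doubted arrays and open symbols for the female pattern. Foxa1 and Foxa2 rise along 1 line across groups, while the 3 Jnk2 KO arrays form the upper right corner for Foxa3 and Onecut1.

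For the 3 factors with the widest range, the genes whose levels followed them most closely over all 15 arrays were listed. Onecut1 was nearest to Zfp609 (Pearson 0.87), Zfp85os (0.86) and Zyg11a (0.85). Cebpb was nearest to Arhgef26, Nos1ap and Tpst2, each at 0.92. Prox1 was nearest to Crb1 (0.83), Rbm48 (0.81) and Vars2 (0.80). The values without the doubted arrays were 0.86, 0.84 and 0.85 for the genes near Onecut1, 0.94, 0.92 and 0.92 for those near Cebpb, and 0.79, 0.80 and 0.80 for those near Prox1. Over all 15 arrays these are the highest among the 19938 genes tested.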

How the data were processed

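RNA of 15 livers was hybridised to Affymetrix whole-transcript arrays, 1 per mouse. The authors deposited RMA-normalized log2 values (RMA per the submitters' processing notes, with no version), and the base of the logarithm was inferred from their range. Arrays were grouped by their labels, which number the mice. Probe sets were named through the platform's gene table: of 35556, 21789 had 1 symbol, 1621 several and 12146 none, and only the first were tested. For 999 genes with several probe sets the one with the highest mean stood for the gene, which left 19938 genes.

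Comparisons were fitted with limma 3.58.1 under R 4.3.3 by lmFit and eBayes, with all 15 arrays in 1 fit and a mean for each group (10 residual and 3.75 prior degrees of freedom; 8 and 5.05 without the doubted arrays). Benjamini-Hochberg adjustment ran over all genes, at a threshold of 0.05. The difference of the NEMO effects is (NEMO/Jnk1 DKO - Jnk1 KO) minus (NEMO/Jnk2 DKO - Jnk2 KO). The number of arrays limits the precision. The pipeline was tested on simulated data. Of 145 symbols in the gene lists 131 were measured. All 9 factors were named; of a list, up to 4 genes past the threshold with the largest change. The factors, the lists and the settings, leaving out the doubted arrays and the sex term among them, were chosen with earlier results of these data known.

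Alternatives were 12 named settings and each of the 15 arrays left out in turn. Samples with the same replicate number did not deviate together: of 30 such pairs, 4 had a correlation above 0.1. The promoters came from a RefSeq table (GRCm38.p6) in which all 9 factors were matched by symbol. Figures used matplotlib 3.10.9 under Python 3.11.15.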

Additional observations from a re-analysis of the deposited data

Results flagged for a closer look

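Igfbp1, a FOXA target that encodes a secreted binder of insulin-like growth factors, was marked because the loss of NEMO went with opposite changes on the Jnk1-null and Jnk2-null backgrounds in the fit without the 2 doubted arrays. There it rose by 1.76 in NEMO/Jnk1 DKO against Jnk1 KO (SE 0.23) and fell by 1.09 in NEMO/Jnk2 DKO against Jnk2 KO (SE 0.23). The difference of the NEMO effects was 2.84 (SE 0.33, limma adjusted p = 0.0190). As labelled it was 2.01 (adjusted p = 1.00), and the sex term left 1.87 (adjusted p = 1.00). The sex term on the 13 arrays that are not doubted, a fit also run for the factors, gave 2.92. The call was lost there, and NEMO/Jnk1 DKO rests on replicate 3 alone in that fit. Like the other settings, it was chosen with earlier results of these data known.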

How the results depend on the processing

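The 7 differences of a factor that passed as labelled or without the doubted arrays kept their sign in every setting run. The count of factors past the threshold in NEMO/Jnk1 DKO against WT, 0 as labelled, was 1 with array weights, 2 without the 2 doubted arrays, 1 with only the arrays compared, and 0 to 2 when single arrays were left out. In NEMO/Jnk2 DKO against WT, 1 as labelled, it was 2 with array weights, 2 without the doubted arrays, 2 without them and with the sex term, 2 with only the arrays compared, and 0 to 2 with single arrays left out. With the replicate block it was 0, and Foxa1 had an adjusted p of 0.0557; the numbers do not pair the mice, and 3 of 15 arrays correlated best with an array of their own number. Without the doubted arrays the count was 1 in NEMO/Jnk1 DKO against Jnk1 KO, 1 in NEMO/Jnk2 DKO against Jnk2 KO and 1 in Jnk2 KO against WT, and with the sex term as well it stayed 1 in the last 2 of these. Leaving out the doubted arrays changed the spread but not the differences between a double knockout and WT, which hold none of them. Beyond that, the cause of these shifts was not tested. Of all genes, 2.63% passed as labelled in NEMO/Jnk2 DKO against WT and 10.6% without the doubted arrays. As labelled, the SE of a factor's difference between 2 groups was 0.13 to 0.29 on the log2 scale, which limits the changes that 3 arrays a group can show.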
